A study of Bos taurus with 8 samples.

Results

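The mitochondrial ribosomal protein genes were examined in skeletal muscle of a pair of well-marbled cattle breeds, Hereford and Holstein-Friesian, against the lean Limousin breed. The members were chosen by name, as genes whose RefSeq transcript carried a symbol beginning with MRPL (large subunit) or MRPS (small subunit) and a number. Of 78 such symbols in the RefSeq table used here (49 MRPL and 29 MRPS), 53 matched a probe of the array, 38 of the large subunit and 15 of the small, among 6693 named genes with a usable probe. All 53 were well above background in 16 of 16 channel readings, so the filter on dim probes removed none. The other 25 symbols, among them MRPL3, MRPL12, MRPS7, MRPS16 and MRPS22, matched no probe through their transcript and were not analysed here.

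Total RNA came from semitendinosus, a hind limb muscle, of 12 bulls aged 15 months, 4 of each breed, with no treatment named. Each of 8 bovine 2-colour Agilent arrays carried a bull of a marbled breed and a Limousin bull. On the first slide the Hereford RNA was in Cy5 and the Limousin RNA in Cy3. On the other slide Cy5 marked Limousin and Cy3 marked Holstein-Friesian. Within a comparison, breed, dye and slide cannot be told apart. The same 4 Limousin bulls were used on both slides and both comparisons share them.

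Mitochondria keep their own ribosomes, which translate the few proteins still encoded by mitochondrial DNA, all of them subunits of the respiratory chain or of ATP synthase. The proteins of these ribosomes are encoded in the nucleus, made in the cytosol and imported. Some descend from proteins of the bacterial ribosome, and others are found in mitochondria only. Muscle fibres rely on this machinery to build oxidative capacity.

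Every value below is a log2 ratio of the breed over Limousin after loess normalization within the array, so a value of 0 is the level of the Limousin bull on the same array. A gene was called when its Benjamini-Hochberg adjusted p from limma was under 0.05 over 17061 probes. Muscle identity was plain in every reading: 11 of 13 fibre markers had a usable probe, and all 11 were above background in 16 of 16 readings. Net signal over background of the median probe was 97 to 139 intensity units in Hereford and 30.5 to 46.5 in Holstein-Friesian. The Limousin channel gave 63 to 88 units with Cy3 and 96.5 to 118 units with Cy5. The median member gave 2550 to 3646 units in Hereford and 838 to 1278 in Holstein-Friesian. In the Limousin channel it gave between 1588 and 2319 units with Cy3 and between 2637 and 3088 units with Cy5. Because this is bulk muscle, fewer cells of a type and less RNA per cell cannot be told apart.

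Few mitochondrial ribosomal protein genes differed from Limousin in either marbled breed. In Hereford, 2 of 53 members were called (3.77%), against 7.14% of all 17061 probes. Of these 1 was higher and 1 lower, against 3.39% and 3.75% of all probes. In Holstein-Friesian the count was 1 of 53 (1.89%), against 6.45% of all probes, and that gene was higher (3% of all probes were higher and 3.45% lower). At an unadjusted limma p under 0.05 there were 6 members in Hereford (11.3%, against 24.2% of all probes) and 11 in Holstein-Friesian (20.8%, against 23.5%). With the breeds averaged for each Limousin bull, 0 of 53 were called, against 0.598% of all probes, and 7 of 53 (13.2%) had an unadjusted limma p under 0.05, against 19.6%.

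The middle of the group lay near 0. The median member stood at 0.01 in Hereford (range -0.36 to 0.46), with 27 of 53 above 0. In Holstein-Friesian it stood at 0.03 (range -0.37 to 0.55), with 29 of 53 above 0. Averaged over the breeds it was 0.02 (range -0.33 to 0.34), with 30 of 53 above 0, while the median over all probes was -0.00. The members' averaged ratios had an SD of 0.167 over genes, against 0.251 over all probes. These directions depend on loess in each comparison. With each array only centred on its median, the median of all probes itself moved from 0.01 to 0.10 in Hereford and from -0.01 to -0.20 in Holstein-Friesian. The median member then stood at 0.24 in Hereford (47 of 53 above 0), at -0.55 in Holstein-Friesian (1 of 53) and at -0.16 over the breeds (7 of 53).

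**Figure D1:**
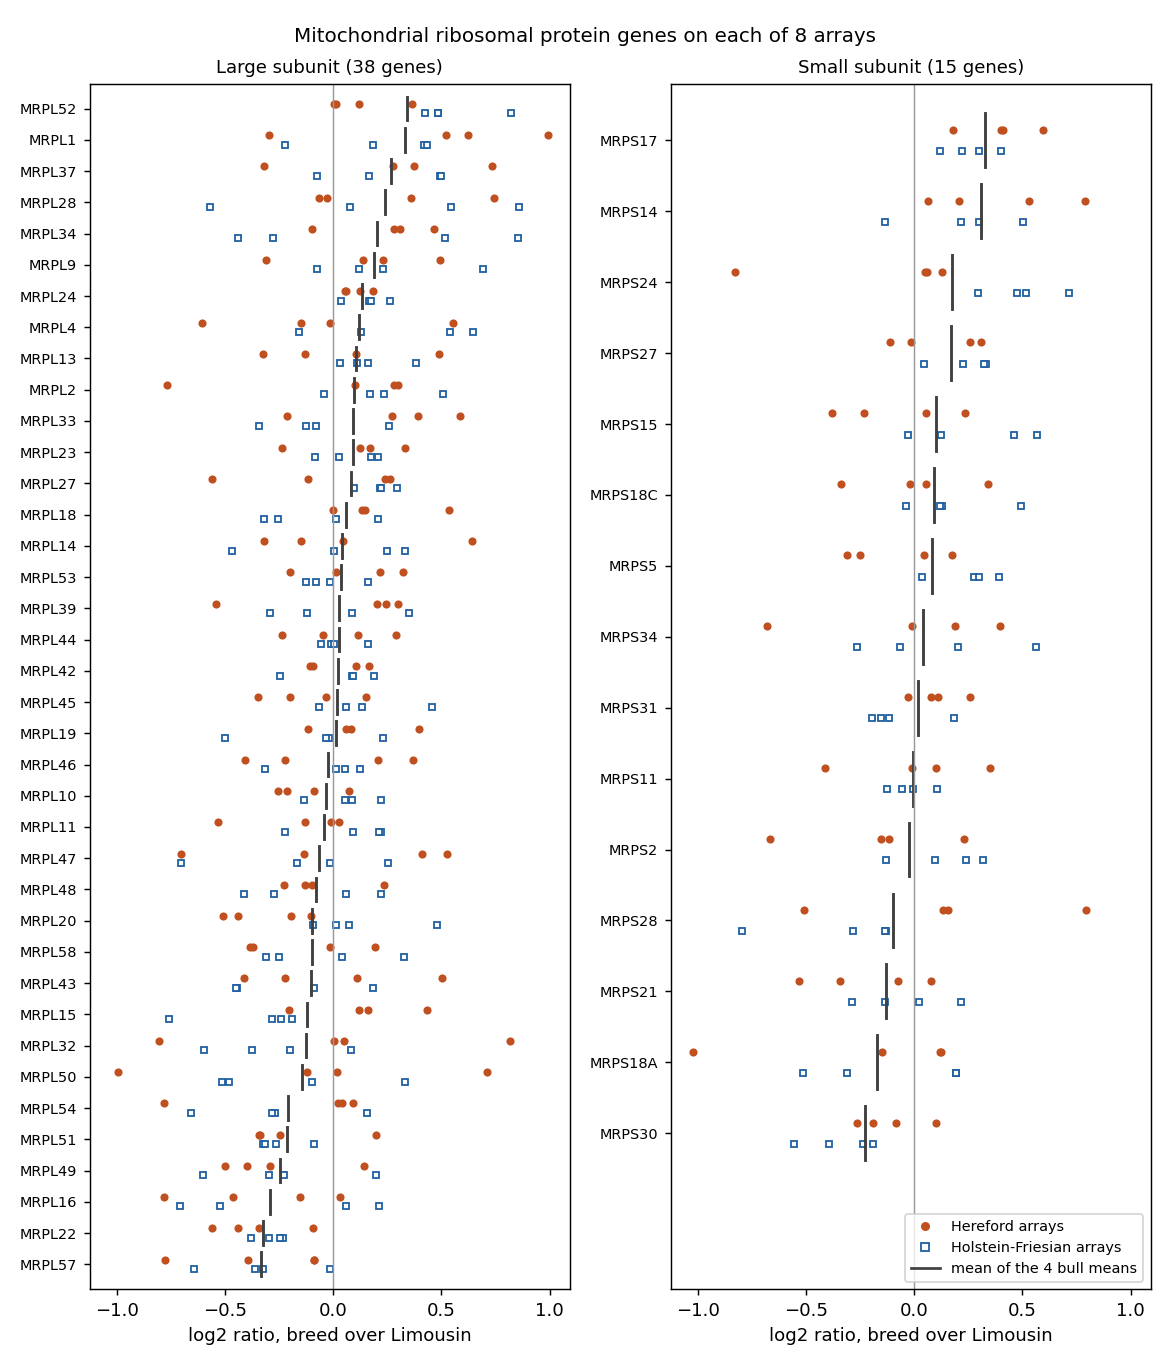
Log2 ratio of breed over Limousin (horizontal axis) for each of the 53 members on the 4 Hereford arrays (filled circles) and the 4 Holstein-Friesian arrays (open squares), with large subunit genes on the left and small subunit genes on the right. The vertical bar is the mean of the 4 bull means, from -0.33 for MRPL57 to 0.34 for MRPL52, and for most genes the points lie on both sides of 0.

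How large a difference these arrays could have missed can be read from the 95% confidence intervals of limma. For a typical member the interval reached 0.30 to each side of the mean in each breed (0.13 for the most precise member and 0.57 for the least). The whole interval lay within 0.5 of 0 for 34 of 53 members in Hereford (64.2%, against 61.3% of all probes). It did so for 28 in Holstein-Friesian (52.8%, against 61.9%) and 37 in the breeds averaged (69.8%, against 74.1%). For those genes a difference beyond that bound lies outside the interval, and for the remainder it does not. On all 4 Hereford arrays 8 of 53 members (15.1%) had the same sign, against 27.7% of all probes. On all 4 Holstein-Friesian arrays it was 14 (26.4%) against 36.5%, and in all 4 bull means 9 (17%) against 28.4%.

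The large and the small subunit were then set against each other, since a ribosome needs both. In Hereford the large subunit median minus the small subunit median was -0.27, 0.00, 0.08 and 0.18 on arrays 1 to 4, a mean of -0.00 ± 0.193 (SD, n = 4). The arrays pointed in both directions, with the large subunit higher on 3 of 4, although by only 0.0048 on array 2. In Holstein-Friesian the difference was -0.18, 0.00, -0.01 and -0.05, a mean of -0.06 ± 0.0861 (SD, n = 4). The large subunit was higher on 1 of 4, by only 0.0012. The breeds averaged gave -0.03 ± 0.0747 (SD, n = 4). Each of these means was smaller than the spread between its arrays or bulls.

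**Figure D2:**
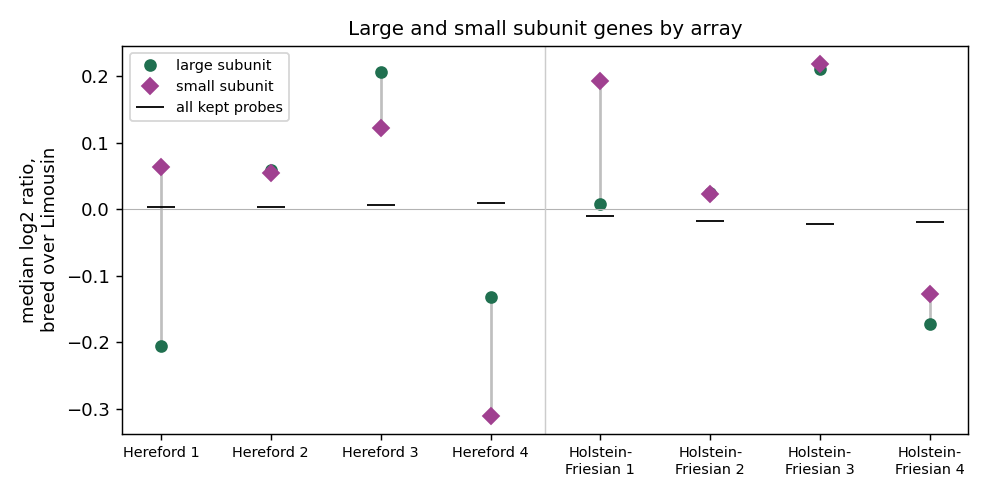
Median log2 ratio of breed over Limousin (vertical axis) on each of 8 arrays for the 38 large subunit genes (circles), the 15 small subunit genes (diamonds) and all usable probes (dashes). The subunits differed most on array Hereford 1, by -0.27, and both varied from array to array; loess itself holds the dashes near 0.

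The called members were also counted by subunit. Of 38 large subunit genes, 1 was lower in Hereford (MRPL22, against 3.75% of all probes) and 1 higher in Holstein-Friesian (MRPL52, against 3% of all probes). Of 15 small subunit genes, 1 was higher in Hereford (MRPS17, against 3.39% of all probes). In Holstein-Friesian 0 of the 15 were called, against 6.45% of all probes. Counts this small do not set either subunit apart from all probes.

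MRPL22 belongs to the wall of the tunnel through which the new chain leaves the ribosome. Its ratios were -0.44, -0.09, -0.56 and -0.34 on the Hereford arrays, all below Limousin (mean -0.36 ± 0.198, SD, n = 4; limma adjusted p = 0.0348). On the Holstein-Friesian arrays they were -0.23, -0.38, -0.29 and -0.24, again all below (mean -0.29 ± 0.067, SD, n = 4; limma adjusted p = 0.0685). It was 1 of 2 members, with MRPL57, that lay below Limousin on all 8 arrays, which share 4 Limousin bulls. The share of all probes with the same sign on all 8 arrays was not counted. The mean over the breeds was -0.32 ± 0.0803 (SD, n = 4 bulls; limma adjusted p = 0.0703), and with the Limousin bull as a block it passed (adjusted p = 0.0360). The Hereford call was lost without any single array pair, at adjusted p from 0.0667 without replicate 2 to 0.162 without replicate 4, with replicates 1 and 3 between them. To set dye aside, each breed was also read against the same Limousin bulls in its own dye on the other slide. Such a single-dye reading subtracts the Limousin Cy5 minus Cy3 difference from the Hereford ratio and adds it to the Holstein-Friesian ratio. It thus moves the breeds equally in opposite directions, runs across slides and is no separate measurement. For MRPL22 the Limousin difference was 0.22, above 0 in all 4 bulls (limma adjusted p = 0.0857). In a single dye the gene was at -0.58 in Hereford (limma adjusted p = 0.0121) and at -0.07 in Holstein-Friesian (adjusted p = 0.638).

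MRPS17 is the counterpart of a bacterial protein that binds ribosomal RNA early in the making of the small subunit. It stood at 0.40, 0.41, 0.18 and 0.59 in Hereford, all above Limousin (mean 0.40 ± 0.170, SD, n = 4; limma adjusted p = 0.0264). In Holstein-Friesian the ratios were 0.40, 0.30, 0.22 and 0.12, again all above (mean 0.26 ± 0.120, SD, n = 4; limma adjusted p = 0.0890). The breeds averaged gave 0.33 ± 0.0879 (SD, n = 4 bulls; limma adjusted p = 0.0712, and 0.0326 with the bull as a block). Here too the Hereford call did not survive the loss of an array, at adjusted p of 0.0627, 0.141, 0.0518 and 0.125 without replicates 1, 2, 3 and 4. In a single dye its Hereford ratio was 0.30 (limma adjusted p = 0.136) and its Holstein-Friesian ratio 0.36 (adjusted p = 0.0747).

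MRPL52, a large subunit protein with no bacterial counterpart, was the member called in Holstein-Friesian. Its ratios there were 0.43, 0.48, 0.82 and 0.48, all above Limousin (mean 0.55 ± 0.180, SD, n = 4; limma adjusted p = 0.0136). Hereford gave 0.00, 0.01, 0.36 and 0.12, below every Holstein-Friesian value (mean 0.13 ± 0.168, SD, n = 4; limma adjusted p = 0.444). The same 4 Limousin RNAs read lower in Cy5 than in Cy3 for this probe, by -0.18, -0.23, -0.27 and -0.25 (limma adjusted p = 0.0467). The single-dye ratios, which follow from the array ratios and this same Limousin difference, were 0.36 in Hereford and 0.32 in Holstein-Friesian (limma adjusted p = 0.0685 and 0.0814). The Holstein-Friesian call was lost without replicate 2 (adjusted p = 0.0791) and without replicate 4 (adjusted p = 0.0866), and with the bull as a block the gene also passed in the breeds averaged (0.34 ± 0.172, SD, n = 4 bulls; limma adjusted p = 0.116 without the block and 0.0270 with it).

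**Figure D3:**
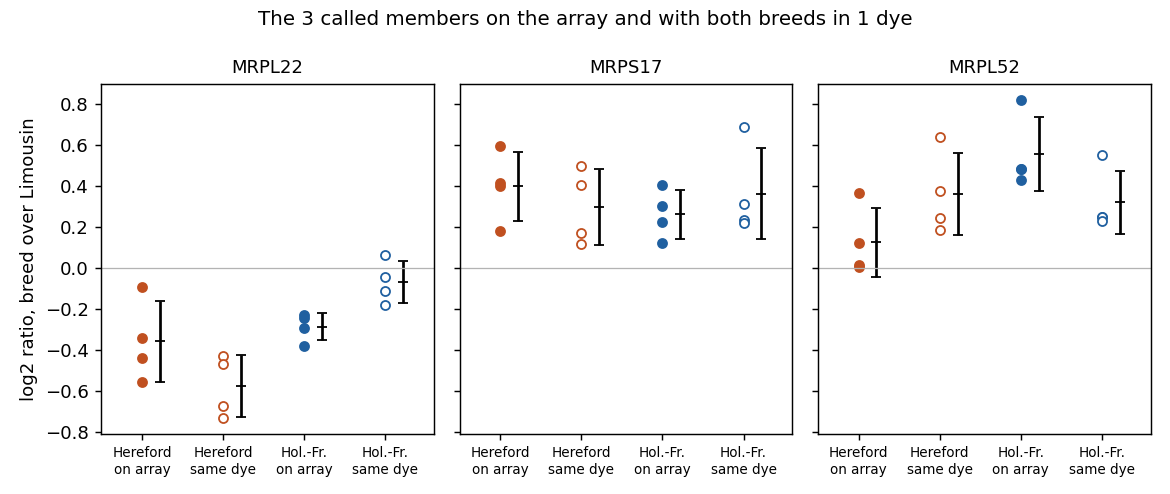
Log2 ratio of breed over Limousin (vertical axis) of MRPL22, MRPS17 and MRPL52 in each bull, as measured on the array (filled) and with the breed and Limousin read in the same dye on different slides (open), with the mean and SD of 4 values beside the points. MRPL52 was higher in Holstein-Friesian than in Hereford on the array (0.55 and 0.13) and at a like level in a single dye (0.32 and 0.36).

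For Hereford minus Holstein-Friesian 0 of 53 members were called, against 2.71% of all probes. An unadjusted limma p under 0.05 was reached by 5 of 53 (9.43%), against 21.1%. The absence of calls does not show equal levels in the breeds. Member differences ran from -0.65 to 0.50. The whole limma confidence interval lay within 0.5 of 0 for 16 of 53 members (30.2%), against 42% of all probes. For the remaining members a difference beyond that bound was not excluded. MRPL52 differed by -0.43 (limma adjusted p = 0.103) in this fit, which did not pair arrays by their shared Limousin bull. With the bull as a block MRPL52 was the only one of the 53 to pass, against 10% of all probes. Of the 53 members, 17 were above Limousin in both breeds, 14 below in both and 22 opposite. The share over all probes was not counted, and both ratios share the Limousin bulls. These counts therefore do not show whether the members differ from other probes. In the Limousin RNAs alone, 6 of 53 members (11.3%) read differently between the dyes and slides, against 4.4% of all probes. Those were MRPL9 at 0.44 higher in Cy5, and MRPL11 (-0.24), MRPL27 (-0.22), MRPL52 (-0.23), MRPL54 (-0.28) and MRPS18A (-0.26).

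Among other large subunit genes, MRPL57, a small mitochondria-specific protein, lay below Limousin on all 8 arrays without passing in any comparison. Its ratios were -0.78, -0.09, -0.09 and -0.39 in Hereford and -0.64, -0.32, -0.36 and -0.01 in Holstein-Friesian (averaged -0.33 ± 0.249, SD, n = 4 bulls; limma adjusted p = 0.190). The values spread widely, and array 1 was the lowest in both breeds. MRPL51, also mitochondria-specific, was below Limousin in all 4 bull means (-0.21 ± 0.123, SD, n = 4; limma adjusted p = 0.179). MRPL24, which like MRPL22 sits at the mouth of the exit tunnel, lay above Limousin on all 8 arrays, from 0.04 to 0.26, with a mean of 0.13 ± 0.0745 (SD, n = 4 bulls; limma adjusted p = 0.269); it was picked out after its values were seen.

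Means of several large subunit genes had opposite signs in the breeds. MRPL20, whose bacterial counterpart is needed early in assembly of the large subunit, had -0.10, -0.51, -0.19 and -0.44 in Hereford (mean -0.31; limma adjusted p = 0.121) and a mean of 0.12 in Holstein-Friesian. MRPL15 had a mean of 0.13 in Hereford and -0.24, -0.28, -0.76 and -0.19 in Holstein-Friesian (mean -0.37; limma adjusted p = 0.116). Both of its signs turned in a single dye, to -0.25 in Hereford and 0.01 in Holstein-Friesian. MRPL18, counterpart of a bacterial protein that binds 5S ribosomal RNA, was at 0.54, 0.15, 0.13 and 0.00 in Hereford (mean 0.21; limma adjusted p = 0.314) and at a mean of -0.09 in Holstein-Friesian. MRPL28 was above Limousin in all 4 bull means (0.24 ± 0.215, SD, n = 4; limma adjusted p = 0.262), although its single arrays ran from -0.57 to 0.86.

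In the small subunit, MRPS14, a protein of its head, was above Limousin on all 4 Hereford arrays at 0.06, 0.53, 0.79 and 0.21 (mean 0.40 ± 0.327, SD, n = 4; limma adjusted p = 0.120). In Holstein-Friesian it had a mean of 0.22, with array 4 below 0, and it was above Limousin in all 4 bull means (0.31; adjusted p = 0.164). MRPS24 and MRPS5, counterparts of the bacterial proteins at the entry site of the messenger RNA, were above Limousin on all 4 Holstein-Friesian arrays. MRPS24 had 0.30, 0.72, 0.48 and 0.52 (mean 0.50; limma adjusted p = 0.0990) and MRPS5 had 0.28, 0.30, 0.39 and 0.04 (mean 0.25; adjusted p = 0.161). In Hereford their means were -0.15 and -0.09. MRPS24 in a single dye was at 0.27 in Holstein-Friesian (limma adjusted p = 0.412) and turned to 0.08 in Hereford. MRPS24, MRPS5 and MRPS17 all fell below 0 in Holstein-Friesian when arrays were only centred on their medians (-0.10, -0.37 and -0.36).

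MRPS28, the counterpart of bacterial S1, was below Limousin on all 4 Holstein-Friesian arrays at -0.13, -0.28, -0.80 and -0.13 (mean -0.33; limma adjusted p = 0.350). It varied more in Hereford, at 0.80, 0.15, -0.51 and 0.13, and array 3 was the lowest in both breeds. MRPS30 is named for the small subunit but resides in the large subunit of the mammalian mitochondrial ribosome, as does MRPS18A. MRPS30 lay below Limousin on all 4 Holstein-Friesian arrays, at -0.23, -0.39, -0.56 and -0.19 (mean -0.34 ± 0.167, SD, n = 4; limma adjusted p = 0.0506, and 0.0455 with the bull as a block). Its Hereford mean was -0.11, with array 1 above 0. Counting both proteins with the large subunit left the subunit difference at -0.01 in Hereford, -0.10 in Holstein-Friesian and -0.05 over the breeds.

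Members descended from bacterial proteins (33) were also set against mitochondria-specific members (20). The median of the bacterial group was higher on all 4 Hereford arrays, by 0.06 ± 0.0314 (SD, n = 4), and on all 4 Holstein-Friesian arrays, by 0.10 ± 0.0674 (SD, n = 4). Over the breeds it was higher in 4 of 4 bulls, by 0.05 ± 0.0454 (SD, n = 4), although bull 4 gave only 8.6e-04. Both comparisons share the Limousin bulls. In a single dye the Holstein-Friesian difference was 0.03 ± 0.0844 (SD, n = 4). MRPL47 was moved to the bacterial group after values were seen. Before the move the Hereford difference was 0.04 ± 0.0515 (SD, n = 4), a mean smaller than its spread. It was then 0.11 ± 0.0768 in Holstein-Friesian and 0.06 ± 0.0429 over the breeds (SD, n = 4 each). A score over members was given no test.

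The median member varied from array to array, with a mean of -0.00 ± 0.150 (SD, n = 4) in Hereford and 0.03 ± 0.142 (SD, n = 4) in Holstein-Friesian. The median member stood at -0.12, 0.06, 0.18 and -0.13 on Hereford arrays 1 to 4, and 21, 35, 42 and 16 of the 53 members were above 0. On the Holstein-Friesian arrays it stood at 0.03, 0.02, 0.21 and -0.13, with 28, 30, 42 and 17 members above 0. Arrays 3 were the highest and arrays 4 the lowest on both slides, and the array median of all probes, which loess holds near 0, lay between -0.02 and 0.01. Since array 3 of both slides carried the same Limousin bull, and array 4 another, the channels were also read apart.

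In Limousin bull 3 the members lay below the mean of the 4 Limousin bulls in both readings of its RNA. The median deviation was -0.09 in Cy3, with 12 of 53 members above the mean, and -0.10 in Cy5, with 14 of 53 above. Limousin bull 4 lay above, by 0.05 in Cy3 (36 of 53) and 0.07 in Cy5 (35 of 53). The bulls set against them were on the opposite side of their own breeds: Hereford 3 was at 0.13 (40 of 53) and Holstein-Friesian 3 at 0.09 (36 of 53), while Hereford 4 was at -0.09 (16 of 53) and Holstein-Friesian 4 at -0.12 (14 of 53). Both channels of an array were normalized together, and how far this ties the values of the bulls on it was not tested. Over all probes the same deviations ran from -0.02 to 0.01.

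**Figure D4:**
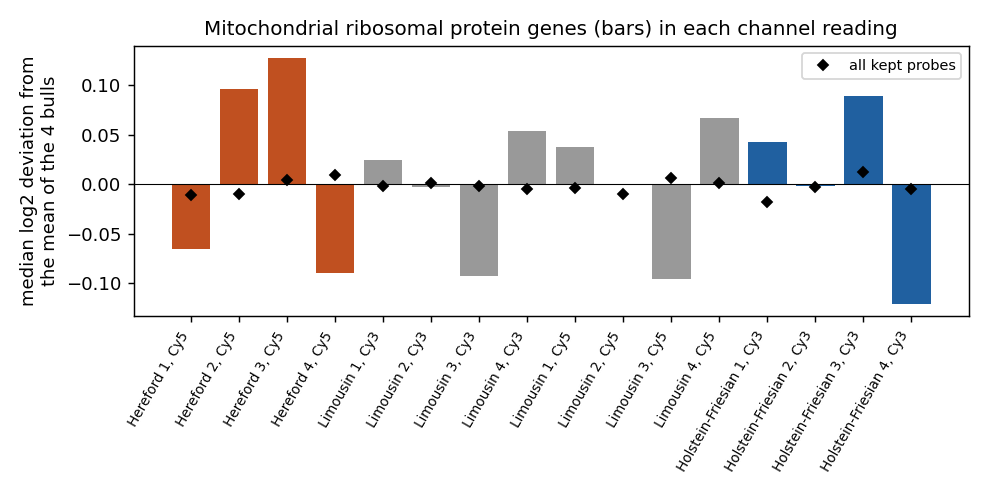
Median deviation of the 53 members from the mean of the 4 bulls of the same breed and dye, in log2 units (vertical axis), for each of 16 channel readings, with the same median over all usable probes as diamonds. Limousin bull 3 was low in both dyes (-0.09 and -0.10) and Limousin bull 4 high in both (0.05 and 0.07).

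Duplicate spots of a member on an array differed by a median SD of 0.044 (0.019 to 0.085), whereas the SD between arrays of a breed had a median of 0.28 (0.08 to 0.57) and exceeded the spot SD in 53 of 53 members. Against probes that were also above background in every reading, whose median SD between arrays was 0.272, 28 of 53 members were above the median. MRPL39 was the only member with a second usable probe, and both its probes lay near 0, at 0.05 and 0.01 in Hereford and 0.01 and -0.02 in Holstein-Friesian.

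The genes that build and serve the mitochondrial ribosome were read next, from lists chosen by function. In all, 94 partner symbols were listed, some of them older names of a gene also listed under its newer name. Of these, 85 were in the RefSeq table and 48 had a usable probe. Among the 48, 2 were lower and 0 higher in Hereford, 2 were lower and 1 higher in Holstein-Friesian, and 0 were called over the breeds. Over all probes 3.39% were higher and 3.75% lower in Hereford, and 3% higher and 3.45% lower in Holstein-Friesian, which is the background for every list below. The partner median was -0.07 in Hereford and 0.07 in Holstein-Friesian, against 0.01 and -0.01 over all probes. Both medians turned sign when arrays were only centred, to 0.13 (37 of 48 above 0) and -0.42 (6 of 48).

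Among 4 further proteins of the mitochondrial ribosome measured under other names, GADD45GIP1 fell in Holstein-Friesian at -0.45, -0.81, -0.84 and -0.65 (mean -0.69 ± 0.177, SD, n = 4; limma adjusted p = 0.0149). All its Hereford arrays were below 0 as well, with a mean of -0.23 (limma adjusted p = 0.265), and PTCD3 had a Hereford mean of -0.18 (adjusted p = 0.278). Without replicates 2, 3 or 4 the GADD45GIP1 call was lost (limma adjusted p from 0.0580 to 0.0889).

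Assembly factors, which fold and modify the ribosomal RNA, were measured for 15 of 29 listed symbols, 25 of which were in the RefSeq table. NGRN, which supports the large subunit's RNA, rose in Holstein-Friesian at 0.02, 0.63, 0.73 and 0.48 (mean 0.47 ± 0.314, SD, n = 4; limma adjusted p = 0.0466). In Hereford all 4 arrays were below 0, at -0.40, -0.43, -0.25 and -0.23 (mean -0.33; adjusted p = 0.117), and the breeds differed by -0.79 (adjusted p = 0.0434, and 0.0433 in a single dye). Both NGRN calls were lost without replicates 2, 3 or 4 (limma adjusted p from 0.186 to 0.220 in Holstein-Friesian and 0.145 to 0.235 for the difference). No assembly factor was called in Hereford, where the pseudouridine synthase RPUSD4 had a mean of -0.53 (limma adjusted p = 0.0783).

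Of 18 listed symbols of translation factors, 17 were in the RefSeq table and 7 were measured. TSFM, the exchange factor of the elongation factor that carries aminoacyl-tRNA, fell in Hereford at -0.68, -0.41, -0.25 and -0.78 (mean -0.53 ± 0.241, SD, n = 4; limma adjusted p = 0.0334). The release factor MTRF1L fell in Holstein-Friesian at -0.61, -0.21, -0.55 and -0.26 (mean -0.41 ± 0.200, SD, n = 4; limma adjusted p = 0.0457). Neither passed in the other breed, with means of -0.16 for TSFM in Holstein-Friesian and -0.17 for MTRF1L in Hereford. Without a replicate both calls were lost, for each of the 4 in turn (limma adjusted p from 0.0521 to 0.131 for TSFM and 0.0857 to 0.177 for MTRF1L). In a single dye both missed the threshold, at limma adjusted p of 0.151 for TSFM and 0.198 for MTRF1L.

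Of 24 listed symbols of genes that charge mitochondrial tRNAs, 22 were in the RefSeq table and 15 were measured. GATB, part of the complex that makes glutaminyl-tRNA, fell in Hereford at -0.21, -0.72, -0.27 and -0.62 (mean -0.46 ± 0.252, SD, n = 4; limma adjusted p = 0.0294). In Holstein-Friesian it stood at 0.31, 0.37, 0.15 and 0.31 (mean 0.29; adjusted p = 0.113), and the breeds differed by -0.74 (limma adjusted p = 0.0349). Without replicates 2, 3 or 4 the Hereford call was lost (limma adjusted p from 0.0635 to 0.168). The difference was lost without the same replicates (0.0977 to 0.228). In a single dye GATB was at -0.16 in Hereford and -0.01 in Holstein-Friesian. The seryl-tRNA synthetase SARS2 had a Holstein-Friesian mean of -0.27 (limma adjusted p = 0.0779). None of 7 measured genes of mitochondrial DNA and RNA synthesis passed limma's adjusted threshold in either breed, and the smallest p fell to TEFM (0.36) and PNPT1 (-0.35) in Hereford and to PNPT1 (-0.53) and TRMT10C (0.46) in Holstein-Friesian, with adjusted p from 0.0729 to 0.196.

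Nuclear regulators of these genes included called genes in both breeds. PPARGC1A, a coactivator that drives mitochondrial biogenesis in muscle, was higher in Hereford at 0.48, 1.59, 2.26 and 1.80 (mean 1.53 ± 0.756, SD, n = 4; limma adjusted p = 0.0353). In Holstein-Friesian it was split, at 1.40, -0.01, 1.27 and -0.06 (mean 0.65; limma adjusted p = 0.292). MYC, which activates genes of ribosome production, was higher in Hereford (mean 1.28 ± 0.674, SD, n = 4; limma adjusted p = 0.0348) and in Holstein-Friesian (2.78 ± 0.607, SD, n = 4; limma adjusted p = 0.0040). It also passed over the breeds (2.03 ± 0.289, SD, n = 4 bulls; limma adjusted p = 0.0256). Of 11 listed regulators 5 were measured, and 2 were higher in Hereford and 1 in Holstein-Friesian, against 3.39% and 3% of all probes. The MYC call over the breeds was lost without each replicate in turn (limma adjusted p from 0.0692 to 0.175). Without replicates 2, 3 or 4 both Hereford calls were lost (limma adjusted p from 0.113 to 0.155 for PPARGC1A and 0.107 to 0.137 for MYC), and the MYC call in Holstein-Friesian was lost without replicate 2 (0.0531).

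Cytosolic ribosomal proteins, which form the ribosomes outside the mitochondria, were read as the counterpart list. Of 58 measured, 1 was higher in Hereford (RPS24; 3.39% of all probes were) and 10 were higher in Holstein-Friesian (3% of all probes were), with 0 lower in either. Their median was 0.15 in Hereford, with 43 of 58 above 0, and 0.25 in Holstein-Friesian, with 53 of 58 above 0. The Hereford median became 0.61 with arrays only centred (58 of 58 above 0) and 0.05 with processed signals (35 of 58). RPS24 was at 0.20, 0.86, 0.66 and 0.83 in Hereford (mean 0.64; limma adjusted p = 0.0369, and 0.107 to 0.163 without replicates 2, 3 or 4). The smallest p in Holstein-Friesian fell to RPL23A (0.49), RPL17 (0.51), RPS4Y1 (0.48) and RPS20 (0.46), with limma adjusted p from 0.0078 to 0.0244; without replicates 2, 3 or 4 all of these calls were lost (up to 0.139). Centred on array medians, these 4 turned below 0 in Holstein-Friesian, where the list median became -0.44 and 1 of 58 lay above 0. The loci of cytosolic ribosomal proteins have many processed copies, and probes may share signal among them.

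**Figure D5:**
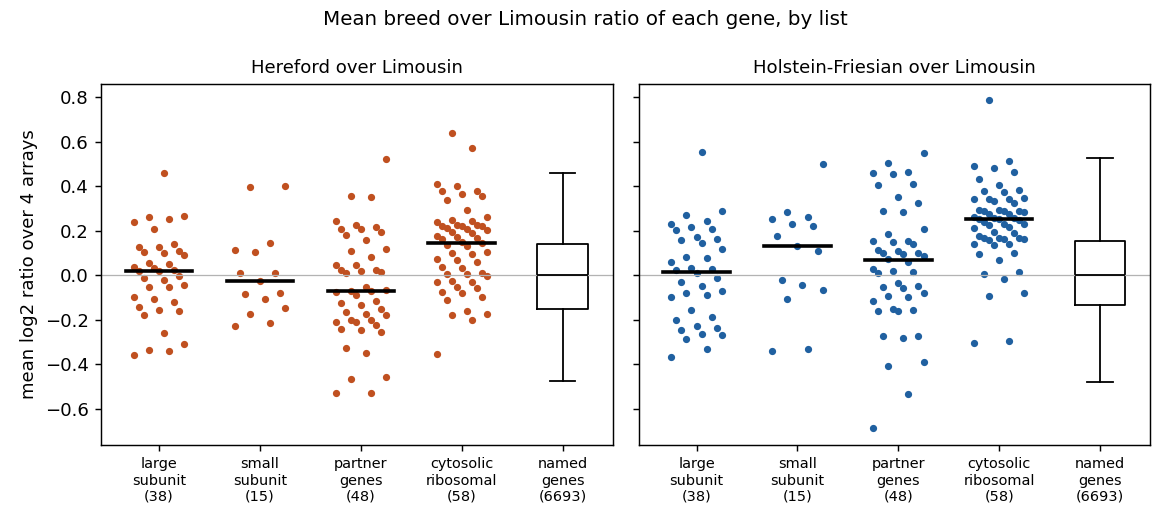
Mean log2 ratio of breed over Limousin over 4 arrays (vertical axis) for each gene of the large subunit, the small subunit, the partner genes and the cytosolic ribosomal proteins, with the list median as a bar, in Hereford (left) and Holstein-Friesian (right). The box on the right of each panel spans the quartiles of 6693 named genes with whiskers at the 5th and 95th percentiles, and the cytosolic list had the highest median in both panels (0.15 and 0.25).

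Markers of muscle fibres and other cell types were read in the same samples. The endothelial, macrophage, blood and nerve lists had 2 measured markers each, with 0 called in either breed. Fibre markers summed to between 1365960 and 1466424 units in Hereford, against 1274105 to 1365121 in Limousin in the same dye on the other slide. In Holstein-Friesian they summed to between 1086917 and 1321702 units, against 1007294 to 1058640. Of 11 fibre markers MYH7 was called higher in Hereford (1.18), and MB (-1.02) and TNNC2 (-0.68) were called lower in Holstein-Friesian. MYH7 was also above 0 on all 4 Holstein-Friesian arrays (mean 1.06, limma adjusted p = 0.0681). It was called over the breeds as well (1.12, limma adjusted p = 0.0458). TNNT1 was at 1.37 in Hereford and 0.87 in Holstein-Friesian, without a call in either. Above 0 lay 10 of 11 fibre markers in Hereford and 5 of 11 in Holstein-Friesian. Breed and dye cannot be told apart in these counts. In the Limousin RNAs alone, every measured fibre marker but PYGM (-0.11) read higher in Cy5 than in Cy3. The largest such differences were TNNC2 (0.57), MYH1 (0.52), MB (0.47) and MYH7 (0.45). A difference of this sign raises the Hereford ratio and lowers the Holstein-Friesian ratio. The summed brightness of 5 of 5 fibroblast markers ran from 12669 to 26093 units in Holstein-Friesian, against 28456 to 45772 in Limousin in the same dye, and from 25620 to 44753 in Hereford against 24052 to 44010 in Limousin in its dye. The fibroblast list was not uniform in Holstein-Friesian: COL3A1 (-2.53) was called, COL1A1 was at -1.14 and LUM at -0.66, and DCN (0.23) and PDGFRA (0.27) were above 0. Adipocyte markers (5 of 6 measured, 3 of them above background in every reading, ADIPOQ without a usable probe) summed to between 2839 and 4589 units in Holstein-Friesian, against 1664 to 3194 units for Limousin in the same dye. In Hereford they summed to 1415 to 4871, against 1538 to 3056 in Limousin. The Hereford bulls were split: FABP4 was at 2.97, -1.34, 1.56 and -1.22 and CIDEC at 2.92, -0.92, 0.49 and -0.56 on arrays 1 to 4. In Holstein-Friesian CFD (1.17, called) was the one adipocyte marker above 0, and the list median was -0.26. Lymphocyte markers overlapped, between 1389 and 1707 units in Holstein-Friesian and between 1219 and 1563 units for Limousin in the same dye, with 2 of 4, CD3E (0.52) and CD8A (0.51), called higher in that breed. Each of these marker calls in a single breed was lost without replicate 2 and without replicate 4 (limma adjusted p from 0.0672 to 0.216 without the latter). Over the breeds, where MYH7 was called, 0 of 17061 probes were called without replicate 2 or without replicate 4. In a single dye MB was at -0.56 and TNNC2 at -0.11 in Holstein-Friesian. Their part in the ratios of the mitochondrial ribosomal protein genes was not tested.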

How the data were processed

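Total RNA of 12 bulls was hybridised to 8 arrays on 2 slides. The software was Agilent Feature Extraction 10.7.3.1, per the submitters' processing notes. The deposited intensity columns were median spot and background signals and processed signals, per the file headers. Deposited log10 ratios put Cy5 over Cy3, which is Limousin over Holstein-Friesian on that slide, and were turned. They matched the scanner's own to within 1e-06 on 44407 of 44407 spots of every array, with column medians of 0. Other columns used were flags for outlying, saturated (0 spots) and well-above-background spots, per the file headers.

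Here normexp (offset 50) and loess (span 0.3, controls without weight) were applied in limma 3.58.1 (R 4.3.3, statmod 1.5.0 and jsonlite 2.0.0, with the data.table package at 1.17.8). Control spots and 6 to 29 outlier spots per array were dropped, leaving 42990 spots before outliers, and spots of a probe were averaged. Of 21475 probes, 17061 had at least 4 of 16 channel readings well above background. Names came from RefSeq transcripts of assembly ARS-UCD2.0. The array follows Btau_3.1, so no coordinates are given. A gene was represented by its brightest probe.

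The lmFit and eBayes functions fitted a mean per breed over all 8 arrays. The breeds averaged used 4 values, the mean of both ratios of each Limousin bull. The dye check took, per Limousin bull, its Cy5 value minus its Cy3 value after Aquantile scaling, and a single-dye reading set each breed against Limousin in the same dye on the other slide. Two-sided tests with an adjusted p under 0.05 gave a call. The labels name the same animal for the same Limousin number on both slides, so the numbers pair the arrays. The deviations of same-numbered arrays had r of 0.415, 0.273, 0.500 and 0.0987. The highest r with an array of another number was 0.144, 0.008, -0.021 and 0.136. Pairs 1 to 3 thus deviated together, and pair 4 did not stand out from differently numbered arrays. SD values are over 4 arrays or bulls, and the number of arrays limits precision.

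Members and lists were chosen with earlier results of these data known. MRPL47 was moved to the bacterial group after values were seen (difference before the move 0.04 in Hereford, 0.11 in Holstein-Friesian and 0.06 over the breeds). Named members were those that passed in any comparison and the 4 largest rises and falls with the same direction on all 4 arrays or bulls; for partner lists, up to 4 called genes, or the 2 with the smallest p. Alternatives covered background correction, centring, processed and deposited values, filters, probe choice, the block, the fit's samples, dye, subunit assignment and each replicate. All value columns were mapped (0 left). Plots used matplotlib 3.10.9. No sequence table was used here.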

Additional observations from a re-analysis of the deposited data

Results flagged for a closer look

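In 4 results a single array or bull stood apart from the other 3 of its group, a gap that chance gives in about 1 in 20 groups of this size. All named members, partners and markers and the subunit differences were screened for it, so some such gaps would arise by chance. MRPL52 was at 0.82 on array Holstein-Friesian 3, against 0.43 to 0.48 on the other arrays of that breed. MRPL15 was at -0.76 on the same array, against -0.28 to -0.19. MRPL57 was at -0.71 in the mean over the breeds for Limousin bull 1, against -0.23 to -0.20 in the other bulls. COL3A1, a fibroblast marker, was at -4.23 on array Holstein-Friesian 3, against -2.14 to -1.75 on the other arrays of that breed.

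Among the partner, cytosolic ribosomal and marker genes named here, 6 differed between the breeds in their ratio to Limousin by limma's test of the difference. NGRN differed by -0.79 (adjusted p = 0.0434), GATB by -0.74 (adjusted p = 0.0349) and the cytosolic RPL23A by -0.60 (adjusted p = 0.0231), each lower in Hereford than in Holstein-Friesian. Of the markers, TNNC2 differed by 1.16 (adjusted p = 0.0231), MB by 1.43 (adjusted p = 0.0341) and CFD by -1.58 (adjusted p = 0.0349). A dye effect adds up in this difference: in a single dye NGRN still differed by -0.79 (adjusted p = 0.0433), while GATB was at -0.15 and RPL23A at -0.06. For the markers, the Limousin Cy5 minus Cy3 difference was 0.57 for TNNC2, 0.47 for MB and -0.14 for CFD. Each has the same sign as the breed difference of its gene and adds to its size. The calls of NGRN, GATB and RPL23A were lost without replicate 2, 3 or 4 (adjusted p from 0.0977 to 0.235). Without replicate 2 or without replicate 4, 0 of 17061 probes were called for this difference, so the TNNC2, MB and CFD calls were lost as well.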

How the results depend on the processing

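The Hereford count of 2 called members became 0 with median centring, processed signals, deposited ratios or the breed's arrays alone, 1 in a single dye (MRPL22), and 0 without each replicate in turn (0 to 0). The Holstein-Friesian count of 1 became 27 with median centring (all lower; 39.1% of all probes were called), 2 with the replicate block (6.33% of all probes), 2 with the breed's arrays alone (4.92%) and 2 in a single dye (MRPL9 and MRPS27; 5.96%), and ran from 0 to 1 without a replicate. Over the breeds the count of 0 became 1 with median centring (MRPL22; 5.57% of all probes) and 3 with the replicate block (5.33% of all probes), and stayed 0 without each replicate. For the difference it became 27 with median centring (all higher; 36.5% of all probes) and 1 with the replicate block (10% of all probes). The block changed no other member count. Median centring took the all-probe median from -0.01 to -0.20 in Holstein-Friesian and from 0.01 to 0.10 in Hereford; the cause was not tested. The single-dye setting for the breeds averaged was added after seeing the data and gave the same value by construction. Subunit differences moved by less than their SD throughout.

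Values that turned sign with median centring were, in Holstein-Friesian, MRPS24 -0.10, MRPS17 -0.36, MRPS5 -0.37, RPL23A -0.19, RPL17 -0.18, RPS4Y1 -0.18, RPS20 -0.25, NGRN -0.19, GATB -0.0035 and TRMT10C -0.11, in Hereford, GADD45GIP1 0.0093 and PTCD3 0.0383, and, for the difference between breeds, RPL23A 0.49 and NGRN 0.16. Read in 1 dye, MRPL15 turned to 0.0082 and GATB to -0.0108 in Holstein-Friesian, and, among Hereford means given beside them, MRPL15 turned to -0.25 and MRPS24 to 0.08. Of the other settings on named genes and on the bacterial against mitochondria-specific difference, 640 left the result on its side, 145 lost a call, 19 gained one and 1 moved the value by over 1 SD.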
